A study of Mus musculus with 9 samples.

Results

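Among the 42006 distinct probes of a mouse gene expression array, 47 read transcripts whose level was lower in uninduced cells of a Zscan4-ERT2 embryonic stem (ES) cell clone than in a control clone, and lower again after tamoxifen. They were chosen on the measured values. A probe was taken if its processed log2 ratio of sample to reference was lower by at least 0.5 in the uninduced clone than in the control clone, and lower by at least 0.5 more in the induced clone. The array values of neighbouring groups could not overlap at either step, and the sample channel had to be well above background on all control and all uninduced arrays. That background condition left 23191 probes open to the rule, of which the 47 were 0.203%. The size and direction of the falls therefore come from the choice and are given as a description, without a test. The rule with every sign turned, which finds stepwise rises, was met by 60 probes, 0.259% of those open to it. Falls of at least 0.5 in the second step only, with a first step within 0.25, were more numerous at 874, and falls in the first step only came to 194.

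The arrays compared 3 groups of V6.5 ES cells, a male hybrid line of C57Bl/6 and 129, with 3 arrays each. The control group was clone #2, whose transfection is labelled as control (Neo), cultured for 3 days without tamoxifen. The uninduced group (Tmx-) was clone #18, transfected with pCAG-Zscan4-ERT2 and cultured for 2 days without tamoxifen. The induced group (Tmx+) was the same clone #18 with 200 nM tamoxifen for 2 days. All 9 cultures were monolayers on gelatin in medium with LIF, the cytokine that holds mouse ES cells undifferentiated. Each genotype is represented by a single clone, and the clones also differ in days of culture, so transgene, clone and culture time cannot be told apart in the first step. Tamoxifen was not given to the control clone on any array, so tamoxifen itself and the activated fusion protein cannot be told apart in the second. The labels do not say whether replicates were separate cultures, so the spread between them may be technical.

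Zscan4 encodes a zinc finger protein of the 2-cell mouse embryo that cultured ES cells switch on in short bursts, few cells at a time, where it is known for its role in telomere maintenance and genome stability. ERT2 is a mutated hormone-binding domain of the estrogen receptor. A protein fused to it is held by chaperones outside its site of action until tamoxifen or its active metabolite binds. The CAG promoter of the construct is known as active in most cell types; whether the fusion protein was made in these cells was not measured here. A stepwise fall is an ordering of 3 states, control clone above uninduced clone above induced clone, and both steps use the same uninduced arrays, so an error in those arrays enters both with opposite sign.

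The transcripts behind the 47 probes are known here by probe ID and sequence only, since on all 9 arrays the gene name of a probe repeats its ID. Zscan4, ES cell markers and markers of other cell types could for that reason not be read, and neither the induction nor the labelled cell type was checked. The 60-base probes shown next, written 5′ to 3′, are those on which the results turn. The first 3 had the largest falls on the scale M defined below, each over 4-fold from control to induced cells. Capitals mark the letters AATAAA, the polyadenylation signal, in the one that holds them.

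Z00004852-1: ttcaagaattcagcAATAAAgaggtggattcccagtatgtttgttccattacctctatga
Z00046616-1: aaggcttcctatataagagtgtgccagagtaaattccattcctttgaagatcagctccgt
Z00024788-1: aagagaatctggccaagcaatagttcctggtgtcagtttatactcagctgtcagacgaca

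The next probe had the largest first step of the 47 on the scale M defined below, and the one after it is an exact repeat of a 30-base unit, with the first copy in capitals.

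Z00026802-1: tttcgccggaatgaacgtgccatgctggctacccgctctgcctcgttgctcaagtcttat
Z00068415-1: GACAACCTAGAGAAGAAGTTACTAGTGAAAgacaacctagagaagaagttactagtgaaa

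The last pair overlaps by 38 bases, in capitals, and is the only case in which a probe outside the 47 shares a run of 20 or more bases with one of them. Z00015207-1 belongs to the 47 and Z00075231-1 does not.

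Z00015207-1: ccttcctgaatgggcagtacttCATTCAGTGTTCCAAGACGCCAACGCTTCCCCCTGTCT
Z00075231-1: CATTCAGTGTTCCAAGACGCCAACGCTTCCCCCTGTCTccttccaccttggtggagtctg

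No probe of the array, inside the 47 or outside, was alike to one of them on the same strand by 85% identity along 40 bases or more. The 47 therefore do not hold several readings of one stretch of sequence, although several could still lie in 1 transcript. Their GC content had a median of 45%, from 30% to 61.7%, and the median over the 24757 probes tested was also 45%. The letters AATAAA or ATTAAA, searched on the probe strand, occurred in 7 of the 47 (14.9%) and in 10.8% of the tested probes. With the array's rows split into 4 equal blocks, 11, 9, 12 and 15 of the 47 lay in each, so they were spread over the slide surface.

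The level of a transcript is given below as M, the log2 ratio of the ES cell signal (Cy3) to a common reference (Cy5) after background correction with normexp at offset 50 and loess normalization. This scale differs from the processed ratio used by the rule, in which dim probes move further. M is 0 where sample and reference are equal and, at bright spots, 1 where the sample is 2-fold higher. At dim spots the offset draws M toward 0, so a 2-fold difference gives less than 1. The arrays had a mean Cy3 intensity of 1243 to 2151, and the spread of tested probes around their group mean was 0.0504 to 0.0777 on 8 arrays and 0.121 on uninduced replicate 1. In such bulk samples, fewer cells expressing a transcript and less RNA per cell cannot be told apart.

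Over the 47, M had a median of 0.27 in control cells, -0.04 in uninduced cells and -0.71 in induced cells. Array by array, the median over the 47 was 0.24, 0.29 and 0.27 in control cells, -0.03, -0.07 and -0.05 in uninduced cells, and -0.73, -0.75 and -0.64 in induced cells. The 3 groups were apart in the median without overlap, which the order asked for by the rule makes likely. Arrays of one group lay close together. The log2 change of M in the first step, uninduced against control, had a median of -0.46 and ranged from -0.92 to -0.08, where all tested probes had a median of 0. In the second step, induced against uninduced, the median was -0.49 and the range from -2.62 to -0.04, against a median of 0.01 over all tested probes. From control to induced cells the median was -0.98, with a range from -3.44 to -0.22. Expressed as a share of the control level on the M scale, the uninduced clone kept a median of 72.7% (53% to 94.8%) and the induced clone 50.8% (9.24% to 85.6%), where no induced array gave a signal well above background at 8 of the 47. Shares of the control level here and below are all those of M. At dim probes less would be left on the scale of the rule.

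Of the 24757 probes tested by limma (adjusted p below 0.05), 11.1% were called lower in the first step, 17.2% in the second and 18.4% from control to induced cells. The 47 held 41, 44 and 47 such calls, which their choice on the same arrays makes likely. Lower in both steps were 38 of the 47, beside 1.8% of all tested probes. M was ordered without overlap in 39 of the 47, beside 3.26% of all tested probes, since the rule asked for the order on the other scale. Falls of at least 2-fold on the M scale were reached by 0 of the 47 in the first step (0.254% of tested probes, at an adjusted p below 0.05), by 7 in the second (0.8%) and by 23 over both (0.889%). On the M scale the group is thus made of moderate steps that add up, with 3 probes passing 4-fold over both. The falls were larger on the scale of the rule, where dim probes move further. Its medians were -0.60 in the first step, -0.98 in the second and -1.66 over both.

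Z00004852-1 had the largest fall and was the brightest of the 47, with a mean Cy3 signal above background of 28100 in control cells. Its M was 2.13, 2.16 and 2.24 on the control arrays, 1.39, 1.34 and 1.33 on the uninduced arrays, and -1.30, -1.24 and -1.25 on the induced arrays. The transcript was thus above the reference in the clone without tamoxifen and below it with tamoxifen, and the arrays of each group lay close together. The log2 change was -0.82 in the first step (SE 0.04) and -2.62 in the second (SE 0.04), which left 9.24% of the control level, a 10.8-fold fall.

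Z00046616-1 started near the reference and ended far below it. Its M was -0.31, -0.30 and -0.26 on the control arrays, -0.75, -0.88 and -0.82 on the uninduced arrays, and -2.76, -2.72 and -2.62 on the induced arrays. The gap between uninduced and induced arrays was several times the first gap, with changes of -0.53 (SE 0.05) and -1.89 (SE 0.05) and 18.8% of the control level left.

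Z00024788-1 was below the reference in all groups. Its M was -0.95, -1.04 and -1.11 on the control arrays, -1.44, -1.44 and -1.59 on the uninduced arrays, and -3.07, -3.30 and -2.96 on the induced arrays. Again the induced arrays stood far from the others, with changes of -0.46 and -1.62 (SE 0.08 for each) and 23.7% of the control level left. Induced cells gave a mean Cy3 signal above background of 78.4 at this probe, so its induced level is read from a dim spot.

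Among the next largest falls, the pair Z00030455-1 and Z00012342-1 had steps of similar size. Z00030455-1 read 0.72, 0.79 and 0.78 in control, -0.03, -0.05 and -0.05 in uninduced, and -1, -1.06 and -1.08 in induced cells, with changes of -0.81 and -1.01 (SE 0.04). Z00012342-1 read 1.06, 0.98 and 0.92, then 0.25, 0.17 and 0.21, then -0.73, -0.75 and -0.64, with changes of -0.77 and -0.92 (SE 0.05). In both, every group was narrow against the distance to the next, and both crossed from above to below the reference level.

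Z00054605-1, Z00036496-1 and Z00074293-1 shared another trait, an uninduced replicate 1 that lay closer to the control arrays than its 2 fellow replicates did. Z00054605-1 read 2.01, 2.03 and 1.98 in control, 1.63, 1.39 and 1.34 in uninduced, and 0.36, 0.22 and 0.17 in induced cells. Its uninduced replicate 1 was the one nearer to control, and the changes were -0.55 and -1.20 (SE 0.08). Z00036496-1 read 0.39, 0.45 and 0.41, then 0.02, -0.23 and -0.30, then -1.24, -1.22 and -1.19, with changes of -0.59 and -1.05 (SE 0.07). Z00074293-1 read 0.66, 0.63 and 0.68, then 0.25, 0.09 and 0.06, then -0.98, -0.99 and -0.95, with changes of -0.52 and -1.11 (SE 0.05). None of the 3 overlapped between groups on M, but the rule had asked for that order on its own scale. Uninduced replicate 1 was the highest of its group at 28 of the 47 (59.6%) and the lowest at 13 (27.7%), beside 52.2% and 32.8% of all tested probes. It was the only uninduced array on the slide of the control arrays, and its part in the size of the steps at these probes is given by the within-slide values below.

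Z00003765-1 and Z00026802-1 differed from the other large falls in that the first step was the larger. Z00003765-1 read 1.5, 1.51 and 1.51 in control, 0.69, 0.44 and 0.68 in uninduced, and -0.17, -0.03 and -0.14 in induced cells, with changes of -0.90 and -0.72 (SE 0.07). Z00026802-1 read -1.28, -1.30 and -1.36, then -2.35, -2.19 and -2.16, then -2.85, -2.84 and -2.73, with changes of -0.92 and -0.58 (SE 0.06). Its first step left 53% of the control level, the lowest share among the 47.

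The balance of the steps varied over the group. The second step was the larger in 35 of the 47 and the first in 12, and in 10 the second was over 2 times the first. On the scale of the rule the first step was the larger in 8. Among the 32 probes well above background on all 3 induced arrays, the first step made up a median of 44.1% of the fall of M, from 21.9% at Z00046616-1 to 64.6% at Z00021305-1. Z00024788-1, at 22.1%, was next to the lowest. The fitted share was lower still at Z00022778-1, but its induced level was not well above background on any array, so its share is not measured. At this probe 1 uninduced array was also left out of the fit because its spot was marked as an outlier. Its M was 0.55, 0.46 and 0.36 in control, 0.41 and 0.35 in uninduced, and -0.12, -0.06 and -0.12 in induced cells, so that control and uninduced arrays overlapped on this scale.

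At the other end of the fitted shares stood Z00027254-1, Z00007723-1 and Z00021305-1, of which only the last was well above background on all induced arrays. Z00007723-1 read -2.52, -2.60 and -2.46 in control, -3.20, -3.03 and -3.11 in uninduced, and -3.45, -3.47 and -3.17 in induced cells, with changes of -0.59 and -0.25 (SE 0.08), and only 1 induced array gave a signal well above background. Z00021305-1 read 1.05, 1.18 and 1.33, then 0.96, 0.47 and 0.43, then 0.30, 0.37 and 0.26, where uninduced replicate 1 lay closer to the control arrays than to its own group. Z00027254-1 was the dimmest of the 47, at 42.8 above background in control cells, and its M of 0.18, 0.13 and 0.04, then -0.09, -0.09 and -0.01, then -0.20, -0.09 and -0.03 did not separate uninduced from induced cells. It was well above background on no induced array, so the share of its first step is not measured.

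Nearly equal steps were seen at Z00055966-1 (49.5% in the first), Z00004790-1 (48.8%) and Z00053404-1 (48.1%). Z00055966-1 read -1.40, -1.40 and -1.37 in control, -1.85, -2.06 and -2.01 in uninduced, and -2.63, -2.59 and -2.48 in induced cells. Z00004790-1, far below the reference, read -3.25, -3.25 and -3.18, then -3.72, -3.84 and -3.78, then -4.34, -4.38 and -4.37. Z00053404-1 read 0.43, 0.42 and 0.45, then 0.03, 0.03 and -0.02, then -0.39, -0.46 and -0.48. These 3 lay at quite different levels against the reference and yet each lost about as much at one step as at the other, with falls to 44.1%, 45.5% and 54.3% of the control level.

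The level in control cells against the reference, which is a pool of 11 mouse cell lines mixed 2:1 with another ES line, divided the 47 in a way the rule had not set. At least 2-fold above the reference were 8 of the 47 (17.0%), beside 5.35% of all tested probes, and at least 2-fold below it were 15 (31.9%), beside 11.4%. Within 2-fold lay 24 (51.1%), beside 83.3%. No test was made of these shares, they hold for M, which draws dim probes toward the reference level, and the level in control cells is part of the same contrast. For comparison, the 60 stepwise rises held 0% above and 28.3% below, the falls in the second step only 16.8% and 11.4%, and the falls in the first step only 8.76% and 43.8%.

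The balance of the steps differed between these classes as a description. The 8 probes above the reference had median changes of -0.53 and -0.74, with a median of 39% of the fall in the first step. In the 15 below it the medians were -0.57 and -0.49, the first share was 56.4%, and the first step was the larger in 9. In the 24 near it the medians were -0.27 and -0.43, the first share was 38.6%, and the second step was the larger in 23. On the scale of the rule, a comparison added after the data were seen, 20 of the 47 (42.6%) were at least 2-fold above the reference, 14 (29.8%) below it and 13 (27.7%) within, beside 15.1%, 12.3% and 72.6% of all tested probes. The reference channel was well above background on all 9 arrays at 40 of the 47. It was not at Z00068415-1, Z00057892-1, Z00023254-1, Z00022778-1, Z00024297-1, Z00065660-1 and Z00024074-1. All of these fell in the class above the reference on the scale of the rule, so their class there rests on a reference signal near background. On that scale the second step had the larger median in each class, and of the 15 probes below the reference by M the first step was the larger in 5 rather than 9. The larger first step of that class is thus a feature of M and not of both scales. The 24 near the reference by M were also the dimmest class, with a median Cy3 signal of 80.4 above background in control cells, beside 430 above and 162 below the reference.

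Array values are given next for the classes above and below the reference, at probes picked after their values were seen. Z00056572-1, above the reference, read 1.62, 1.64 and 1.71 in control, 1.32, 1.07 and 1.06 in uninduced, and 0.27, 0.38 and 0.28 in induced cells, with changes of -0.50 and -0.84 (SE 0.07). Z00011311-1, from the same class, read 1.53, 1.45 and 1.28, then 0.94, 1.02 and 1.03, then 0.31, 0.33 and 0.32, with changes of -0.43 and -0.68 (SE 0.06). In both the induced level was close to that of the reference and the second step was the larger. Z00075102-1, far below the reference, read -3.49, -3.45 and -3.48, then -4.22, -4.19 and -4.20, then -4.71, -4.78 and -4.74, with changes of -0.73 and -0.54 (SE 0.04). Z00046482-1, the lowest of the 47 against the reference, read -4.05, -4.05 and -4.12, then -4.50, -4.34 and -4.34, then -4.84, -4.94 and -4.62. Its changes were -0.32 and -0.41 (SE 0.08), so its second step was the larger, unlike the medians of its class on M. It was dim, at 63.3 above background in control cells, and well above background on only 2 induced arrays. Z00075102-1 and Z00046482-1 were already low in control cells and went lower at both steps, with uninduced and induced arrays apart at each.

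As medians over the 47, the falls lay in the sample channel. Over the 47, the log2 signal of the reference channel alone moved by a median of 0.05 in the first step and -0.01 in the second, and that of Cy3 alone by -0.32 and -0.46. Over all tested probes Cy3 alone moved by 0.12 and 0.05, a shift in the other direction. Cy3 alone was lower at both steps in 44 of the 47, which their choice on a falling ratio makes likely. The share of all tested probes that did so was not counted. At Z00022778-1, Z00024297-1 and Z00054866-1 mean Cy3 did not fall in the first step, and Cy5 rose. Cy3 above background went from 48.5 to 69.1, 65.5 to 66.8 and 67.5 to 68.2 at these probes. Their Cy5 went from 26.5 to 75.6, 31.8 to 42.9 and 45.1 to 59.8. At Z00004852-1 the mean Cy3 signal above background went from 28100 in control to 19600 in uninduced and 3130 in induced cells, while Cy5 was 12200, 13400 and 12900. At Z00046616-1 Cy3 went from 902 to 644 and 147 while Cy5 was 2040, 2010 and 2000.

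Many of the 47 were dim. Their median Cy3 signal above background in control cells was 160, beside 328 over all tested probes, and 27 of the 47 (57.4%) were under 200, beside 41.5%. The rule set no background condition for the induced arrays. A Cy3 signal too near background on 1 or more of them was found at 31.9% of the 47, beside 4.15% of all tested probes. The share was 10.6% among falls in the second step only, 2.06% among falls in the first step only and 0% among stepwise rises. On the induced arrays 32 of the 47 were well above background on all 3, 7 on 1 or 2, and 8 on none. At those 8 the induced level is only a bound. A bound was taken from the normalized Cy3 level alone, open to dye bias without a swap. It sets the control mean against the lowest level well above background on the induced arrays, or the probe's own level where that was higher. The bound on the fall from control to induced cells came out at 2.27-fold for Z00068415-1, 1.46-fold for Z00045660-1, 1.41-fold for Z00022778-1 and 1.32-fold for Z00065660-1. At the other 4, Z00023254-1, Z00027254-1, Z00029656-1 and Z00029906-1, the bound came out above the fold of M, so no fold is given for them. The 4 values given come from the same calculation and are therefore no firm lower limits. For 4 of these 8, Agilent's software had put a surrogate value in place of the Cy3 signal on 1 or 2 induced arrays.

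The probes that missed a limma call lay mostly among the dim ones. Not called in the first step were Z00045660-1, Z00029906-1, Z00022778-1, Z00054866-1, Z00024297-1 and Z00024074-1, each with a Cy3 signal under 200 above background in control cells and a level within 2-fold of the reference. Z00045660-1 read 0, 0.03 and -0.03 in control, -0.07, -0.12 and -0.31 in uninduced, and -0.61, -0.68 and -0.44 in induced cells. Its first change was -0.17, and its induced level was well above background on no array, with a surrogate Cy3 value on 1. Z00024297-1 read 0.62, 0.80 and 0.57, then 0.42, 0.48 and 0.64, then 0.11, 0.09 and 0.21, so that its uninduced replicate 3 lay among the control arrays. Not called in the second step were Z00021305-1, Z00030375-1 and Z00027254-1. Z00030375-1 read -1.34, -1.48 and -1.34 in control, -1.79, -1.67 and -1.74 in uninduced, and -1.73, -2.17 and -1.94 in induced cells, so that induced replicate 1 lay within the uninduced arrays. On the M scale 8 of the 47 had such an overlap at one step or both. At Z00037261-1, called in both steps, the overlap came from 1 array: induced replicate 3 read -3.89 where the other 2 induced arrays read -4.44 and -4.42, and the uninduced arrays lay between -3.94 and -3.78.

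Z00068415-1, the 30-base repeat printed above, was not well above background in Cy3 on any induced array. Its value on the scale of the rule was 0 on induced replicates 1 and 2, where a surrogate stood for the signal, so its second step of -3.75 on that scale is no measured size. The reference channel was not well above background at this probe on any array. On the M scale it read 1.34, 1.25 and 1.55 in control, 1.18, 0.69 and 0.78 in uninduced, and 0.06, 0.16 and 0.16 in induced cells. The first change was -0.50 (SE 0.12) over all arrays and -0.20 within the slide of the control arrays, where only the high uninduced replicate 1 lies. Its Cy3 signal above background was 101, 65.6 and 22.3 as group means. The order of the 9 arrays by group was the same on both scales. Such an exact repeat was held by 4 probes of the array, 3 of them tested.

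The treatment of background set the size of the falls mainly at dim probes. In the 24 brighter probes, with a mean Cy3 signal of 103 to 16900 over the arrays, the median steps were -0.56 and -0.70 as M and -0.62 and -0.96 in the processed ratio. In the 23 dimmer probes, at 36.6 to 101, they were -0.25 and -0.39 as M and -0.60 and -1.07 in the processed ratio. With offset 10 in place of 50 the dimmer probes stood between these, at -0.39 and -0.58. Of the brighter probes 23 were called lower in both steps, and of the dimmer ones 15.

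Z00075231-1, which overlaps Z00015207-1 by 38 bases, had no part in the choice of the 47 and missed both thresholds of the rule, at -0.48 and -0.42. Z00015207-1 itself read -2.47, -2.43 and -2.45 in control, -3.10, -3.13 and -3.04 in uninduced, and -3.54, -3.62 and -3.59 in induced cells. Its partner read -2.01, -1.86 and -1.83, then -2.21, -2.35 and -2.41, then -2.74, -2.39 and -2.72. The partner's control and uninduced arrays did not overlap, whereas its induced replicate 2, at -2.39, lay within the uninduced arrays. Its changes of -0.42 (SE 0.10, limma adjusted p = 0.0129) and -0.29 (SE 0.10, limma adjusted p = 0.0375) both passed the threshold of 0.05, and both pairs of groups gave the same direction as at Z00015207-1. This probe was picked because it shares sequence with one of the 47, it hybridised to the same 9 samples, and it is no replicate of them.

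The edges of the rule lay close to other probes. On the scale of the rule, the first step was -0.5053 at Z00053404-1 and -0.5147 at Z00023254-1 just inside, and -0.4998 at Z00023365-1 and -0.4982 at Z00018780-1 just outside. Within 0.1 of the first threshold lay 24 probes inside and 29 outside that met every other condition. The second threshold was less crowded, with 4 inside and 2 outside. Just inside were Z00055030-1 (-0.514) and Z00024074-1 (-0.5215), and just outside Z00020522-1 (-0.4189) and Z00028651-1 (-0.4184). A further 7 probes met both steps and the background condition but overlapped between groups, 4 at the first step and 5 at the second.

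The slide of the arrays followed the groups in part. Slide 1 held the control arrays and uninduced replicate 1, slide 2 uninduced replicates 2 and 3 and induced replicates 1 and 2, and slide 3 induced replicate 3. The first step could be read within slide 1 and the second within slide 2. In those comparisons all 47 changes were below 0 at both steps, with medians of -0.40 and -0.54 beside -0.46 and -0.49 over all arrays. All tested probes had a median of 0.02 at each step within slides. The rule asked for the order of groups on every array, which makes the direction likely in any part of the arrays. The direction is therefore no check on the slides. Z00004852-1 gave -0.78 and -2.61 within slides, and Z00026802-1 -1.03 and -0.67. The first step was smaller within slide 1 at Z00054605-1 (-0.38), Z00036496-1 (-0.40), Z00074293-1 (-0.40), Z00021305-1 (-0.22) and Z00068415-1 (-0.20), the probes named above for a high uninduced replicate 1. At 9 of the 47 the first step over all arrays was at least 1.5 times that within slide 1. Within slide 1 the uninduced clone is that 1 array, which is assumed to vary like the others.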

How the data were processed

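Per the labels, every one of the 9 arrays carried ES cell RNA in Cy3 and the reference pool in Cy5, and dyes were never swapped. The authors deposited scanner files whose intensity columns, per the file headers, come from Agilent Feature Extraction 9.5.1.1 and are not background-corrected. The deposited log10 ratio is red over green after background subtraction and dye normalization, per the file headers, and its sign was turned and its base changed to 2 for the rule. The deposited value table, on a log10 scale inferred from the values, has array medians of 2.17 to 2.19 and holds 25030 spots. Its steps at the 38 of the 47 it holds differed from those of the log ratio by at most 0.00032 on the log2 scale, which settles scale and direction of changes. Its centring and choice of spots are not stated.

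M was computed in limma 3.58.1 (R 4.3.3) with normexp (offset 50) and loess, in which control spots had weight 0. Spots marked as outliers were left out of M, not out of the rule. The 24757 probes tested had a Cy3 signal well above background throughout 1 group or more, which 17249 did not. The 9 arrays were fitted together with lmFit and eBayes, two-sided, adjusted by Benjamini-Hochberg over all tested probes. With 3 arrays against 3, the smallest p of an exact permutation test is 0.1. The number of arrays limits the precision, and at dim probes the signal over background does. Sequences were compared with blastn 2.17.0. The steps were tested on simulated data; a first run missed its recovery target in 1 comparison, and the simulated noise was then lowered toward the spread of the arrays before the target was met, so the recovery is not quoted.

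The 47 probes and all lists and rules were chosen with earlier results of these data known. Given one by one are the 10 largest falls, the 3 probes with the most and the 3 with the least of the fall in the first step, the 3 with the most equal steps, and those next to the thresholds. The repeat probe and the overlapping pair were chosen after their values were seen. Gene lists and cell type markers were not used here, since no probe has a gene name.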

Additional observations from a re-analysis of the deposited data

How the results depend on the processing

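The count of probes meeting the rule depended on the scale and step asked for. On M with loess 14 met it, 13 of them among the 47 and the other Z00023365-1, and with steps of 0.3 and 1 in place of 0.5, 177 and 2 met it. On the deposited value table all 38 that it holds met it. Its steps are nearly those the rule used, so this is no separate check. With all 9 arrays well above background 32 met it. Leaving out 1 array gave 45 to 52, and without uninduced replicate 1 49 met it, of which 38 were among the 47. The calls by limma (adjusted p below 0.05) were 41, 44 and 47 in the first step, the second step and over both, and 38 in both steps. Brackets give the share of all tested probes called lower in the first and second step, here 11.1% and 17.2%. In the main fit 18.4% were called lower over both and 1.8% in both steps. For the other fits these 2 shares were not counted, so the last 2 counts of each have nothing to be weighed against. With Cy3 alone the calls among the 47 were 24, 34, 45 and 23 (1.56% and 5.61%). With a fall of at least 2-fold asked for they were 0, 7, 23 and 0 (0.254% and 0.8%). Leaving out 1 array gave 33 to 42, 41 to 44, 47 and 30 to 39 (7.28% to 14.9% and 13.9% to 18.6%). With slide as a fixed block they were 35, 42, 45 and 34 (17.3% and 18.9%), and with slide as a random block 37, 44, 47 and 34 (14.3% and 18.9%). Within slides they were 33 and 42, with 32 in both (15.4% and 17.4%). With the replicate block they were 38, 44, 47 and 36 (8.97% and 15.4%). Same-numbered arrays of different groups deviated together with correlations from -0.41 to 0.172, so the numbers were not taken to pair the samples. The other alternatives (offset 10, Agilent's ratio, median centring, value table, filters, intensity trend) kept each count within 1.5 times. Under them 3.85% to 12% and 8.51% to 19% of the probes fitted were called lower in the first and second step. Of the results for single named probes, 933 kept direction and call, 53 lost the call, 7 gained it, and 1 turned direction, the second step of Z00027254-1, which ran from -0.08 to 0.01 when 1 array was left out and was 0.01 without induced replicate 1. What caused these changes was not tested. The search for shared runs of 20 bases, the classes on the scale of the rule and the shares among probes above background were added after seeing the data. Sizes at probes near background are limited by their signal.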
